A study of Mus musculus with 12 samples.

Results

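The genes described here are 35 transcripts commonly used as markers of neurons, followed through RNA sequencing libraries of astrocytes purified from the mouse cerebral cortex. They were found by an exact match of the gene symbol, and all 35 were among the 45777 genes of the deposited gene table. All 35 also passed the filter on low counts that left 19163 genes for testing. The list spans synaptic vesicle proteins, transmitter transporters and enzymes, the neuronal cytoskeleton, RNA-binding and calcium-signalling proteins, transcription factors, neuropeptides and secreted proteins, and surface proteins with 1 non-coding RNA.

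Astrocytes were taken at postnatal day 14 from 4 groups with 3 libraries each. AGR cKO ESD and AGR cKO control animals carried Nr3c1 flox/flox, the floxed glucocorticoid receptor gene, together with Aldh1l1-CreERT2, a tamoxifen-activated recombinase under the promoter of the astrocyte gene Aldh1l1. Cre- ESD and Cre- control animals carried Nr3c1 flox/flox without the recombinase. Pups of both ESD groups were kept apart from the mother for 3 hours each day from postnatal day 1 to 14, while every animal of all 4 groups, the Cre- controls included, was given 4-hydroxytamoxifen from day 5 to day 7. Cells were isolated by immunopanning with magnetic beads. The labels do not say whether the libraries of a group came from separate animals or litters, so p-values measure only the spread between these libraries. The genotype entries of some labels count up with the replicate (Nr3c1, Nr3c2, Nr3c3), so groups were taken from the titles.

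Total counts ranged over 42603546 to 52130081 per library, and log-scale correlations within a group over 0.971 to 0.989. Nr3c1, the targeted gene, was lower in every AGR cKO library than in every Cre- library, at 90.5, 66.5 and 95.9 CPM in AGR cKO ESD, 102, 93.2 and 108 CPM in AGR cKO control, 209, 205 and 199 CPM in Cre- ESD, and 214, 210.0 and 237 CPM in Cre- control libraries (CPM, counts scaled to a common library size). Gene counts cover all exons and do not show which part of the gene was deleted. The source of the remaining Nr3c1 counts in AGR cKO libraries was not tested. The astrocyte markers Aldh1l1, a folate enzyme, Slc1a3, a glutamate transporter, and Aqp4, a water channel, averaged 456, 5846 and 1155 TPM over the 12 libraries (TPM, a deposited unit corrected for transcript length as well as library size). Among 15 astrocyte markers the median of such means was 1155 TPM.

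Neurons release transmitter from vesicles that fuse with the membrane through SNARE proteins such as SNAP-25, under the control of the calcium sensor synaptotagmin. Excitatory cortical neurons load glutamate with the transporters encoded by Slc17a7 and Slc17a6, and inhibitory interneurons make GABA with the enzymes encoded by Gad1 and Gad2 and often carry the peptides somatostatin or neuropeptide Y. In many cells outside the nervous system such genes are held silent by the repressor REST, which binds a bipartite element. Purified glia usually carry some neuronal RNA, and some genes on such lists are also transcribed in glia. In bulk libraries neuronal RNA carried over with the astrocytes and transcription within astrocytes cannot be told apart, and neither can fewer neurons and less RNA per neuron.

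Promoter windows of 4 members are shown as examples that hold a part of the REST element. Slc17a7, Syt1 and Tubb3 were lower in AGR cKO ESD than in AGR cKO control libraries. Syn1, in the same vesicle class as Syt1, overlapped between those groups. Windows with neither part are not shown, so the 4 members do not stand for the list. The windows are RefSeq sequence of build GRCm38.p6, from 250 bases before to 50 bases after the annotated start, read 5′ to 3′ on the gene's strand. Capitals mark the 2 parts of the REST element, CAGCACC and GGACAG, on either strand.
Slc17a7 (chr7:45163671-45163970, plus strand): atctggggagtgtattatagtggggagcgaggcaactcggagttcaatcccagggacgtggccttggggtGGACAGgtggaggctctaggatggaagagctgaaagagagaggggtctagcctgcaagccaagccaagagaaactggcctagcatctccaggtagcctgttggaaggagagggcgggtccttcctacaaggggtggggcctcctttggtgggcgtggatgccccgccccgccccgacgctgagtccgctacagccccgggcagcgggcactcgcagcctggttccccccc
Syt1 (chr10:109010926-109011225, minus strand): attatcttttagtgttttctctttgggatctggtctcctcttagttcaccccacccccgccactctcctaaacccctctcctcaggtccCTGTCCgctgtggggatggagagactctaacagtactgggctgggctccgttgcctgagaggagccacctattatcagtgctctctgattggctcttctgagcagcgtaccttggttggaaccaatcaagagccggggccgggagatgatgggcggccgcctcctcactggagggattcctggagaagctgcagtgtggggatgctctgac
Tubb3 (chr8:123411303-123411602, plus strand): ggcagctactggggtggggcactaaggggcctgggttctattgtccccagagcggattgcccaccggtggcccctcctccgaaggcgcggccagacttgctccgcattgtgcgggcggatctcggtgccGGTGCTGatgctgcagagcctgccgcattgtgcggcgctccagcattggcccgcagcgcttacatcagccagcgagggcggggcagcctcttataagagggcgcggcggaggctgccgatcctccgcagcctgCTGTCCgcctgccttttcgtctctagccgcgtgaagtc
Syn1 (chrX:20920869-20921168, minus strand): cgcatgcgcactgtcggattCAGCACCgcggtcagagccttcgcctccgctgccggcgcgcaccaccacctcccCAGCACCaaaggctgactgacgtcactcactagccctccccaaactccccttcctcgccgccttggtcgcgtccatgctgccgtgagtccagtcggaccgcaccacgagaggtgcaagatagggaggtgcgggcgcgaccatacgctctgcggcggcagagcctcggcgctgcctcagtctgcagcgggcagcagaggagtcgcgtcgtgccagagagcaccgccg
The Slc17a7 window and this Syt1 window each held 1 GGACAG, the Tubb3 window 1 of each, and the Syn1 window 2 copies of CAGCACC. Windows were present for 24 of the 35 members, 31 windows in all. CAGCACC was in 6.45% of them, from 2 members, against 7.14% of all 32851 windows. GGACAG was in 25.8%, from 8 members, against 22.2% of all windows. The glucocorticoid receptor element, searched as GNACA and TGTNC with 3 bases between, was in 0 of the 31 windows and in 0.475% of all windows. The motifs do not overlap one another in the windows printed, and a match says only that these letters are there. Only exact matches were counted, so a part that differs in any base is unmarked, as with ggtcag shortly after the first CAGCACC of the Syn1 window. A missing mark therefore does not show that an element is absent.

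Most of these 35 neuronal markers stood at low levels in every library. The 35 genes took 0.0288% to 0.0383% of all counts. Their mean TPM over the 12 libraries had a median of 3.49, against 12.6 for all genes tested. Of the 35 genes, 23 were under 5 TPM, 5 at 5 to 10 TPM and 7 at 10 TPM or more. Among 30 other neuronal genes, described below, such means reached 226.3 TPM. In TPM, Snap25 stood at 0.0848% to 0.212% of Slc1a3.

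**Figure D1:**
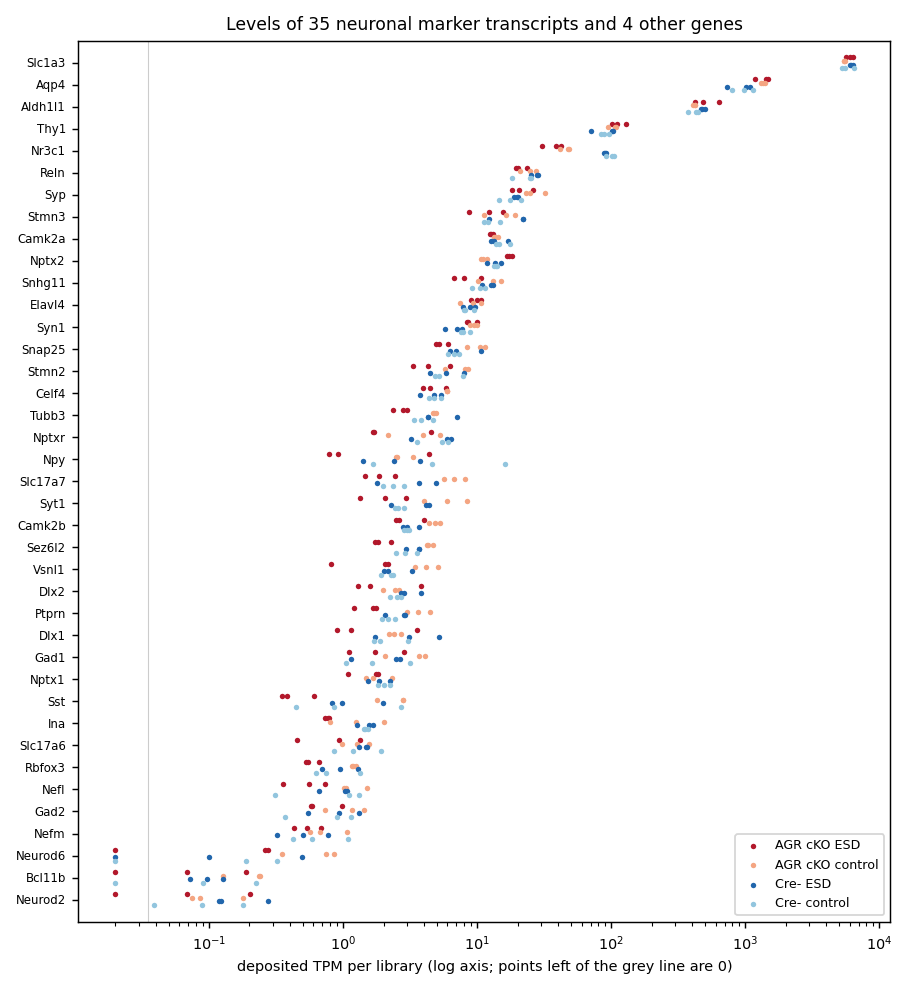
Deposited TPM of the 35 neuronal marker genes and of Nr3c1, Aldh1l1, Aqp4 and Slc1a3 in each of the 12 libraries, on a log axis, ordered by mean; points left of the grey line are libraries at 0. Thy1 averages 99.7 TPM and stands apart from the other markers, of which Reln is next at 23.8 TPM, while the astrocyte gene Slc1a3 averages 5846 TPM.

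Thy1, a GPI-anchored surface protein abundant on projection neurons, was the most abundant member. Its level was 129, 110.3 and 102 TPM in AGR cKO ESD, 95.2, 109 and 107 TPM in AGR cKO control, 100.4, 102 and 70.8 TPM in Cre- ESD, and 96.6, 88.6 and 84.3 TPM in Cre- control libraries. It made up 29.2% to 44.5% of the summed TPM of the 35 members. Reln, the secreted protein reelin of Cajal-Retzius cells and interneurons, averaged 23.8 TPM, and Syp, a vesicle membrane protein, 21.3 TPM. Stmn3, a regulator of microtubules, averaged 14.8 TPM, Camk2a, a calcium-dependent kinase of excitatory synapses, 14.0 TPM, Nptx2, a secreted pentraxin that gathers AMPA receptors, 13.9 TPM, and Snhg11, a long non-coding RNA, 10.9 TPM.

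Of the 5 transcription factors that mark classes of cortical neuron, 3 were at the bottom of the list. Neurod2 averaged 0.12 TPM, Bcl11b 0.123 TPM and Neurod6 0.299 TPM, and each had at least 1 library at a count of 0. A count of 0 allows up to 3 counts, or 0.0586 to 0.0703 CPM, counting error only. Neurod6, a factor of excitatory neurons, had 11, 0 and 10 counts in AGR cKO ESD, 28, 30 and 12 counts in AGR cKO control, 19, 4 and 0 counts in Cre- ESD, and 11, 0 and 6 counts in Cre- control libraries. Dlx1 and Dlx2, factors of interneurons, averaged 2.46 and 2.55 TPM. The glutamate transporter Slc17a7 averaged 3.66 TPM, the GABA enzyme Gad1 2.30 TPM, and the peptide gene Sst 1.38 TPM.

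Libraries of a group differed among themselves in which neuronal genes they held. AGR cKO ESD 2 alone was the lowest of all 12 libraries for 10 of 35 members, and AGR cKO ESD 3 alone for 8. Each also shared the lowest place for 1 member at a count of 0, Neurod6 in AGR cKO ESD 2 and Bcl11b in AGR cKO ESD 3. AGR cKO control 2 was the highest for 16 members, and Cre- ESD 1 for 8. AGR cKO ESD 2 stood apart within its group. It held more of the interneuron genes Dlx1 (3.54 TPM, against 0.895 and 1.15 TPM in AGR cKO ESD 1 and 3), Dlx2 (3.80 TPM, against 1.29 and 1.60 TPM) and Npy (4.37 TPM, against 0.785 and 0.915 TPM). It held less of Syt1 (1.33 TPM, against 2.95 and 2.06 TPM) and of Vsnl1, which encodes a neuronal calcium sensor (0.807 TPM, against 2.06 and 2.14 TPM). Members not particular to interneurons were also higher in AGR cKO ESD 2, such as Syp (26.1 TPM, against 20.7 and 18.2 TPM) and Camk2b (3.99 TPM, against 2.61 and 2.49 TPM). Reln, made by some interneurons, was not highest there (20.2 TPM, against 23.4 and 19.3 TPM). The TPM ratio of Slc17a7 to Gad1 was 0.511 in that library and 1.42 and 1.70 in the other AGR cKO ESD libraries. The genes named for these libraries were chosen after their values were seen.

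**Figure D2:**
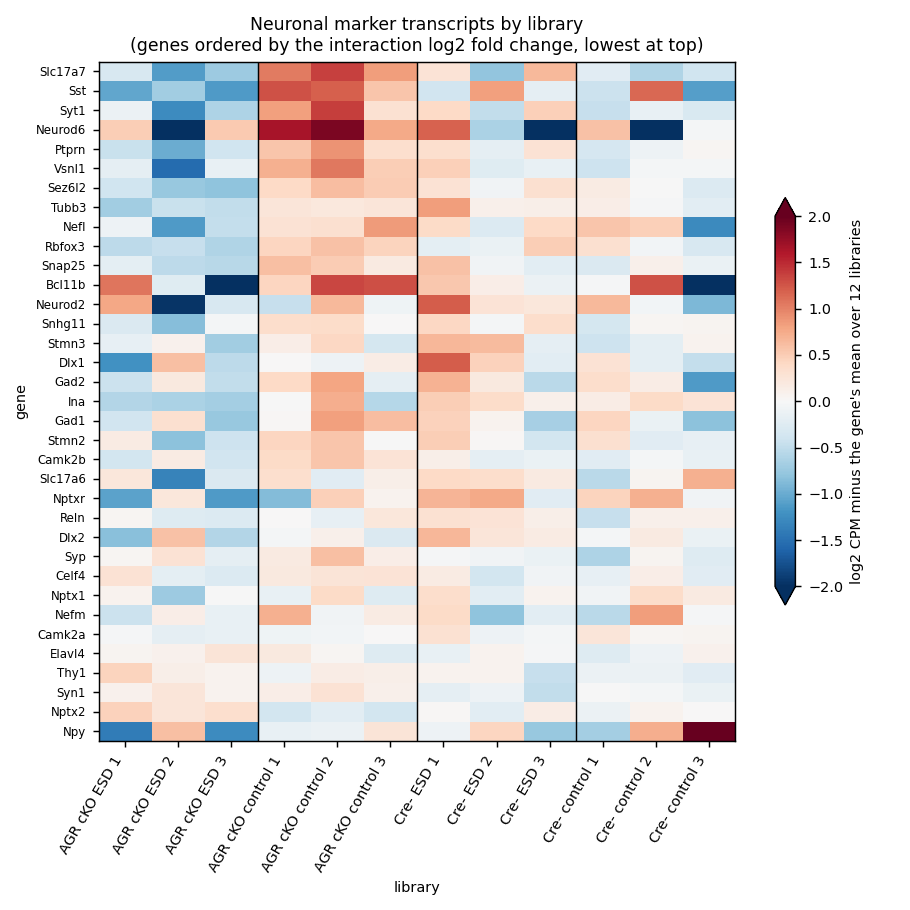
Log2 CPM of each of the 35 genes in each library, minus the gene's mean over the 12 libraries, with genes ordered by the log2 fold change of the interaction. In the upper rows AGR cKO ESD libraries are mostly below and AGR cKO control libraries above the mean, and the median deviation of the 35 genes is lowest in AGR cKO ESD 3 (-0.41) and highest in AGR cKO control 2 (0.48).

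Between the groups, AGR cKO ESD had the lowest group mean for 28 of 35 members and AGR cKO control the highest for 19. Both held at once for 15 members, 42.9%, whereas 6.96% of all genes tested had that order. The summed level of the members was 309.6 ± 26.7 CPM in AGR cKO ESD, 360.3 ± 15.3 CPM in AGR cKO control, 352.0 ± 35.4 CPM in Cre- ESD and 311.8 ± 26.1 CPM in Cre- control libraries (SD, n = 3 each). Without Thy1 the sums were 240.2 ± 16.5 CPM in AGR cKO ESD, 298.3 ± 11 CPM in AGR cKO control, 296.0 ± 27.5 CPM in Cre- ESD and 258.3 ± 26.6 CPM in Cre- control libraries.

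Setting AGR cKO ESD beside AGR cKO control addresses maternal separation in animals with the astrocyte receptor deletion. Neuronal markers were mostly lower under separation: 32 of 35 were lower, with a median log2 fold change of -0.58, against 0.004 over all genes tested. In 14 members every AGR cKO ESD library was below every AGR cKO control library, where 8.65% of genes tested had that pattern. In 1 member, Nptx2, every library was above, where 7.94% of genes did. The list was drawn up with results of these data known, and Sez6l2, Slc17a7, Ptprn and Nptx2 had been singled out in them, so these values are a description and no independent support. Of the 31 other members, 29 were lower, 11 without overlap.

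No member was called by edgeR at an adjusted p under 0.05, and neither was any other gene (0%). At an unadjusted p under 0.05 there were 15 members, 42.9%, against 7.58% of genes tested. DESeq2 called 5 members of 17 genes in all: Sez6l2, Slc17a7, Ptprn, Syt1 and Nptx2. Limma on TPM called 0 members. Without AGR cKO ESD 2 the median was -0.81 and 16 members were at an unadjusted p under 0.05, against 6.53% of genes.

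Among vesicle and release proteins, Syt1 (gene 20979, chromosome 10, 108497650 to 109010980, build mm10), the calcium sensor of fast release, stood at 4.88, 2.19 and 3.46 CPM in AGR cKO ESD, 9.40, 14.0 and 6.58 CPM in AGR cKO control, 7.02, 3.75 and 7.36 CPM in Cre- ESD, and 3.86, 4.80 and 4.26 CPM in Cre- control libraries. AGR cKO ESD libraries lay below all AGR cKO control libraries, the highest of which was replicate 2. Its log2 fold change was -1.51 ± 0.35 (adjusted p = 0.647). Syp (gene 20977, chromosome X, 7638580 to 7653256), a vesicle membrane protein, stood at 18.5, 22.0 and 15.9 CPM in AGR cKO ESD, 20.4, 27.5 and 19.8 CPM in AGR cKO control, 17.9, 17.1 and 16.4 CPM in Cre- ESD, and 11.7, 18.8 and 15.1 CPM in Cre- control libraries. These groups overlapped, with a log2 fold change of -0.26 ± 0.18 (adjusted p = 0.784). All 4 members of the class were lower on average, Snap25 and Syt1 without overlap. Syn1, which tethers vesicles to actin, was at -0.04 ± 0.12.

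Slc17a7 (gene 72961, chromosome 7, 45163921 to 45176139), the vesicular glutamate transporter of cortical excitatory neurons, stood at 2.59, 1.47 and 1.93 CPM in AGR cKO ESD, 6.66, 8.36 and 5.80 CPM in AGR cKO control, 3.91, 1.86 and 5.10 CPM in Cre- ESD, and 2.75, 2.11 and 2.44 CPM in Cre- control libraries. Its AGR cKO control libraries were above every library of the other groups. The log2 fold change for AGR cKO ESD against AGR cKO control was -1.80 ± 0.33 (adjusted p = 0.647). All 4 members of the transmitter class were lower on average. Slc17a6, a related glutamate transporter, was at -0.44 ± 0.39, and the GABA enzymes Gad1 at -0.74 ± 0.39 and Gad2 at -0.61 ± 0.43. Those 3 overlapped between groups.

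In the cytoskeletal class all 6 members were lower on average, and Tubb3, Nefl and Ina without overlap. Tubb3 (gene 22152, chromosome 8, 123411553 to 123422015), neuronal beta-tubulin, stood at 1.48, 1.77 and 1.71 CPM in AGR cKO ESD, 2.87, 2.82 and 2.88 CPM in AGR cKO control, 4.39, 2.61 and 2.64 CPM in Cre- ESD, and 2.68, 2.39 and 2.09 CPM in Cre- control libraries. The AGR cKO ESD libraries were the lowest 3 of the 12, and the log2 fold change was -0.79 ± 0.22 (adjusted p = 0.647). Stmn3 (gene 20262, chromosome 2, 181306459 to 181314500) stood at 5.02, 5.95 and 3.46 CPM in AGR cKO ESD, 6.20, 7.51 and 4.41 CPM in AGR cKO control, 8.93, 8.71 and 4.94 CPM in Cre- ESD, and 4.19, 4.89 and 5.90 CPM in Cre- control libraries. Its groups overlapped, with a log2 fold change of -0.33 ± 0.28 (adjusted p = 0.83).

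RNA-binding and calcium-signalling genes were split by member. Rbfox3, the splicing regulator known as NeuN, was at -1.04 ± 0.25, without overlap, as were the kinase subunit gene Camk2b at -0.58 ± 0.17 and Vsnl1 at -1.29 ± 0.35. Elavl4 (gene 15572, chromosome 4, 110203737 to 110351939), which stabilises neuronal mRNAs, stood at 13.3, 13.6 and 15.3 CPM in AGR cKO ESD, 14.7, 13.2 and 10.7 CPM in AGR cKO control, 11.6, 13.5 and 12.6 CPM in Cre- ESD, and 10.7, 11.9 and 13.7 CPM in Cre- control libraries. It overlapped between all pairs of groups and was at 0.13 ± 0.14. Camk2a (gene 12322) stood at 23.8, 21.2 and 21.7 CPM in AGR cKO ESD, 22.5, 23.2 and 24.1 CPM in AGR cKO control, 29.7, 22.3 and 23.3 CPM in Cre- ESD, and 28.3, 24.7 and 24.9 CPM in Cre- control libraries, the narrowest range among the named members in proportion to its level. It was at -0.07 ± 0.11 (adjusted p = 0.923).

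All 5 transcription factors were lower on average, Neurod6 without overlap at -1.72 ± 1.13. Dlx2 (gene 13392, chromosome 2, 71543408 to 71546754) stood at 1.16, 3.18 and 1.39 CPM in AGR cKO ESD, 2.05, 2.26 and 1.71 CPM in AGR cKO control, 3.36, 2.49 and 2.37 CPM in Cre- ESD, and 2.05, 2.39 and 1.92 CPM in Cre- control libraries. AGR cKO ESD 2 was above all AGR cKO control libraries and AGR cKO ESD 1 and 3 were below them, and the log2 fold change was -0.07 ± 0.33 (adjusted p = 0.98).

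The peptide and secretory class held both directions. Ptprn (gene 19275, chromosome 1, 75247035 to 75264497), a receptor-like protein of dense-core vesicles, stood at 2.13, 1.45 and 2.21 CPM in AGR cKO ESD, 4.32, 5.52 and 3.70 CPM in AGR cKO control, 3.70, 2.57 and 3.59 CPM in Cre- ESD, and 2.31, 2.74 and 3.0 CPM in Cre- control libraries. AGR cKO ESD libraries were below all the others, with a log2 fold change of -1.23 ± 0.23 (adjusted p = 0.647). Nptx2 (gene 53324, chromosome 5, 144545887 to 144557478) stood at 16.8, 14.4 and 15.4 CPM in AGR cKO ESD, 9.40, 10.5 and 9.46 CPM in AGR cKO control, 12.4, 10.5 and 13.5 CPM in Cre- ESD, and 11.2, 12.9 and 12.3 CPM in Cre- control libraries. Its AGR cKO ESD libraries were above, and its AGR cKO control libraries mostly below, the rest, with a log2 fold change of 0.66 ± 0.12 (adjusted p = 0.647). Nptx1, a related pentraxin, was at -0.19 ± 0.26 and Nptxr, the pentraxin receptor, at -0.51 ± 0.43, both with overlap. Sst had 5, 7 and 4 counts in AGR cKO ESD and 34, 29 and 17 counts in AGR cKO control libraries, a log2 fold change of -2.32 ± 0.66 (adjusted p = 0.647). Reln (gene 19699, chromosome 5, 21884454 to 22344705) stood at 98.8, 79.8 and 79.6 CPM in AGR cKO ESD, 96.1, 85.1 and 112 CPM in AGR cKO control, 118, 116 and 103 CPM in Cre- ESD, and 69.4, 103 and 103 CPM in Cre- control libraries. Its AGR cKO groups overlapped, at -0.18 ± 0.15 (adjusted p = 0.827). Npy (gene 109648, chromosome 6, 49822710 to 49829507) stood at 0.181, 0.855 and 0.205 CPM in AGR cKO ESD, 0.489, 0.499 and 0.663 CPM in AGR cKO control, 0.506, 0.750 and 0.305 CPM in Cre- ESD, and 0.327, 0.937 and 3.21 CPM in Cre- control libraries. One library, Cre- control 3, was above all the others, and the AGR cKO groups were at -0.40 ± 0.79 (adjusted p = 0.941).

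Sez6l2 (gene 233878, chromosome 7, 126950495 to 126970610), a neuronal membrane protein, had the smallest p of the members. It stood at 2.99, 2.33 and 2.25 CPM in AGR cKO ESD, 5.24, 6.06 and 5.64 CPM in AGR cKO control, 4.86, 3.77 and 4.94 CPM in Cre- ESD, and 4.43, 3.91 and 3.28 CPM in Cre- control libraries. AGR cKO ESD libraries were the lowest 3 of the 12, and the log2 fold change was -1.16 ± 0.18 (adjusted p = 0.488). Thy1 (gene 21838, chromosome 9, 44043384 to 44048579) stood at 81.0, 64.8 and 62.2 CPM in AGR cKO ESD, 55.3, 65.8 and 64.7 CPM in AGR cKO control, 62.4, 62.2 and 43.3 CPM in Cre- ESD, and 54.6, 54.8 and 51.0 CPM in Cre- control libraries. Those groups overlapped, at 0.16 ± 0.14 (adjusted p = 0.838). Snhg11 was at -0.61 ± 0.20, without overlap.

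**Figure D3:**
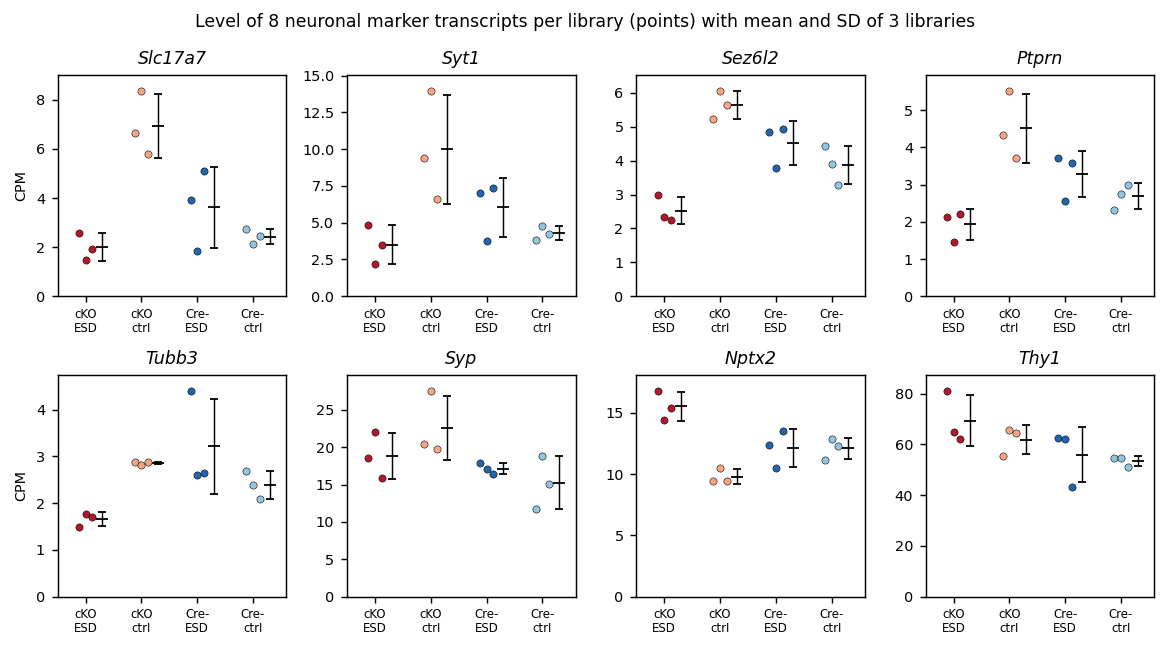
CPM of Slc17a7, Syt1, Sez6l2, Ptprn, Tubb3, Syp, Nptx2 and Thy1 in each library (points) with the mean and SD of 3 libraries per group (bars); each panel starts at 0. Slc17a7 is at 1.47 to 2.59 CPM in AGR cKO ESD and 5.80 to 8.36 CPM in AGR cKO control libraries, while Nptx2 is at 14.4 to 16.8 CPM in AGR cKO ESD and 9.40 to 10.5 CPM in AGR cKO control libraries.

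Several of these genes share exons with another gene in GENCODE M21, and the sources used here do not say if reads were counted by strand. Syp shares 875 bases with an antisense gene, Ptprn 189 bases and Reln 246 bases with antisense genes, Ina 456 bases with Nt5c2, and Nefl and Nefm 1108 bases with each other on opposite strands. Sez6l2 shares 413 bases and Nptxr 890 bases with another gene on the same strand. Reads there can be split or merged by the counting, so the levels of these genes are uncertain to that extent.

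Some markers of other cells moved in the same libraries. None of the mural, microglial, endothelial or astrocyte markers was at a count of 0 in any library. Of 10 markers of mural cells and fibroblasts, 9 were lower in AGR cKO ESD than in AGR cKO control, median log2 fold change -0.70. Their summed level was 1601 to 3596 CPM in AGR cKO ESD and 4462 to 5180 CPM in AGR cKO control libraries. All 10 endothelial markers were lower, median -0.34, with sums of 234.4 to 460.8 CPM in AGR cKO ESD and 326.1 to 709.6 CPM in AGR cKO control libraries. All 8 ependymal and choroid plexus markers were lower too, median -0.36, with sums of 49.7 to 67.3 CPM in AGR cKO ESD and 52.8 to 87.8 CPM in AGR cKO control libraries, and of these Ttr was at a count of 0 in at least 1 library. Astrocyte markers were higher in 13 of 15 genes, with sums of 47890 to 60830 CPM in AGR cKO ESD and 47920 to 51060 CPM in AGR cKO control libraries. Microglia and macrophage markers had no common direction, with 7 of 12 higher and a median of 0.02. Of 8 oligodendrocyte markers 5 were lower (median -0.09), and of 8 markers of oligodendrocyte precursors 5 were lower (median -0.29). The part of these other cells in the neuronal values was not tested.

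**Figure D4:**
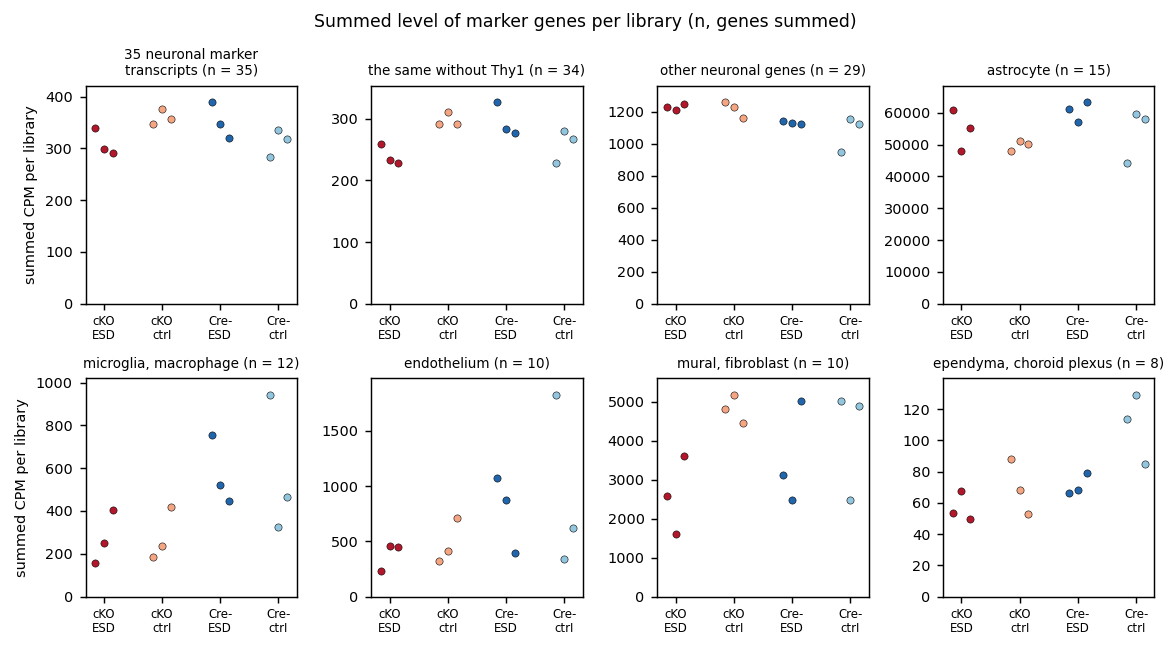
Summed CPM per library of the 35 neuronal markers, the same without Thy1, 29 other neuronal genes, and markers of astrocytes, microglia and macrophages, endothelium, mural cells and fibroblasts, and ependyma and choroid plexus. The sums of the 35 members range over 283.3 to 389.8 CPM, while endothelial sums range over 234.4 to 1829 CPM.

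For separation with the receptor intact, Cre- ESD against Cre- control, members leaned the other way. There 29 of 35 were higher, with a median log2 fold change of 0.12, against -0.02 over all genes tested. Every Cre- ESD library was below every Cre- control library in 0 members, where 6.39% of genes had that pattern, and above in 1 member, Reln, where 4.68% did. EdgeR called 0 members and 0% of genes, and 0 members were at an unadjusted p under 0.05, where 7.19% of genes were. DESeq2 called 0 members of 24 genes, and limma on TPM 0. Without Cre- ESD 1 the median was -0.01.

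By smallest p the members were Stmn3 at 0.59 ± 0.28 (adjusted p = 0.694), Npy at -1.51 ± 0.75 (adjusted p = 0.708) and Tubb3 at 0.43 ± 0.22 (adjusted p = 0.708). Stmn3 was high in Cre- ESD 1 and 2 and overlapped in Cre- ESD 3. The Npy value rests on Cre- control 3 at 3.21 CPM, since the other Cre- control libraries held 0.327 and 0.937 CPM. The members that DESeq2 called in AGR cKO ESD against AGR cKO control were here Slc17a7 at 0.57 ± 0.33, Syt1 at 0.49 ± 0.34, Sez6l2 at 0.22 ± 0.18, Ptprn at 0.29 ± 0.23 and Nptx2 at 0.00 ± 0.12.

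In these libraries the 8 markers of ependyma and choroid plexus all stood lower in Cre- ESD, median -0.57, with sums of 66.2 to 78.8 CPM in Cre- ESD and 84.6 to 129 CPM in Cre- control libraries. All 10 endothelial markers were lower, median -0.28, with sums of 396.2 to 1074 CPM in Cre- ESD and 338.9 to 1829 CPM in Cre- control libraries, and 13 of 15 astrocyte markers were higher, median 0.10. Of 12 microglia and macrophage markers 7 were lower (median -0.03), and of 8 oligodendrocyte markers 4 were higher (median 0.06). The part of these other cells in the neuronal values was not tested.

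**Figure D5:**
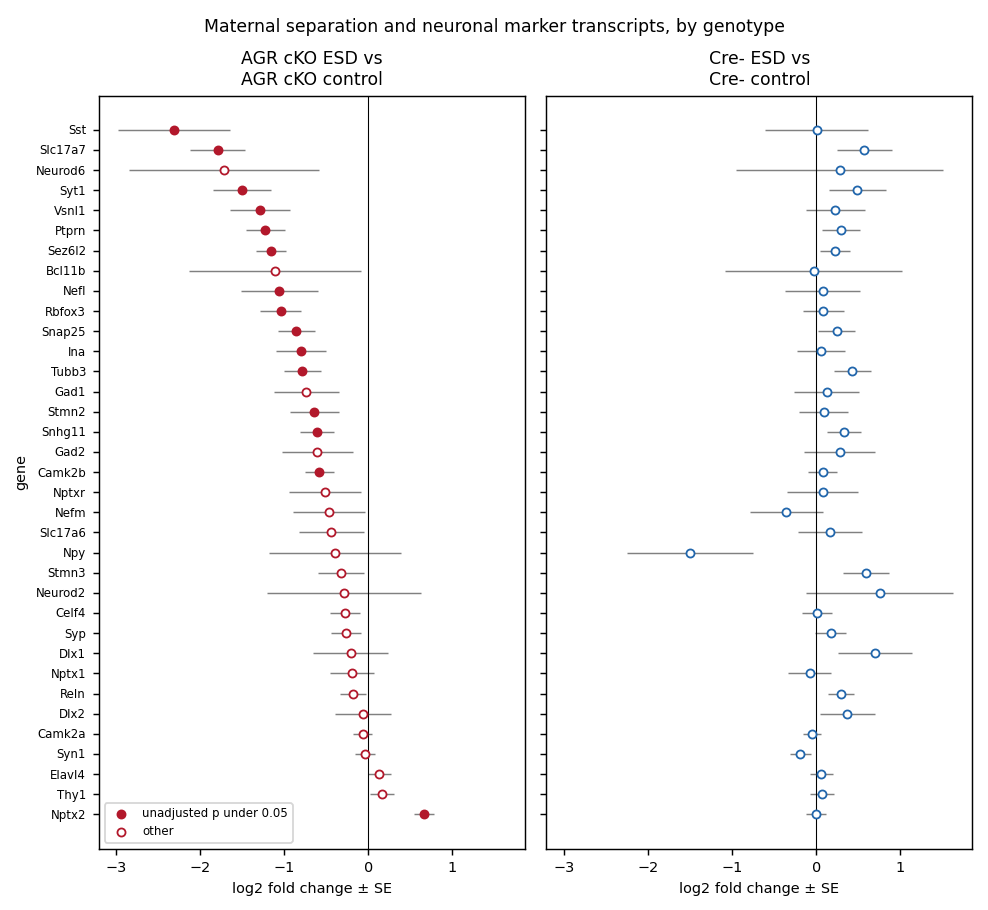
Log2 fold change ± SE of the 35 genes for AGR cKO ESD against AGR cKO control (left) and Cre- ESD against Cre- control (right), ordered by the left panel; filled points have an unadjusted p under 0.05. On the left 32 of 35 genes are below 0 and 15 are filled; on the right 29 are above 0 and none is filled.

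The difference between these responses was tested as the interaction of separation and genotype. It was below 0 in 30 of 35 members, with a median log2 value of -0.87, against 0.02 over all genes tested. EdgeR called 0 members and 0% of genes. At an unadjusted p under 0.05 there were 14 members, 40%, against 4.49% of genes. DESeq2 called Sez6l2, Slc17a7 and Ptprn of 9 genes in all, and limma on TPM called 0. Without Cre- ESD 1 the median was -0.56 and 12 members were at an unadjusted p under 0.05, against 3.21% of genes. The smallest p belonged to Sez6l2 at -1.38 ± 0.25 (adjusted p = 0.904), Slc17a7 at -2.37 ± 0.46 (adjusted p = 0.904) and Ptprn at -1.52 ± 0.32 (adjusted p = 0.98).

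Setting AGR cKO control beside Cre- control addresses deletion of the receptor in pups left with the dam. It shares the AGR cKO control libraries with the first comparison, so the values stand side by side and one is no check of the other. Members were higher in AGR cKO control in 27 of 35, with a median log2 fold change of 0.32, against -0.01 over all genes tested. No overlap and higher held for 14 members, where 8.54% of genes had it, and no overlap and lower for Camk2a and Nptx2, where 8.39% did. EdgeR called 0 members and 0.0157% of genes. At an unadjusted p under 0.05 there were 9 members, 25.7%, against 10.2% of genes. DESeq2 called Syt1 and Slc17a7 of 265 genes, and limma on TPM 0 members. Without AGR cKO control 2 there were 6 members at an unadjusted p under 0.05, against 6.58% of genes.

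All 4 synaptic vesicle genes were higher without overlap. Syt1 was at 1.21 ± 0.34 (adjusted p = 0.269) and Syp at 0.57 ± 0.18 (adjusted p = 0.313). Slc17a7 had the smallest p, at 1.51 ± 0.33 (adjusted p = 0.211), and Ptprn was at 0.75 ± 0.23 (adjusted p = 0.29). The peptide class did not follow: 4 of 7 members were lower, among them Nptx2 at -0.31 ± 0.12 (adjusted p = 0.397) and Npy at -1.43 ± 0.75 (adjusted p = 0.562). As above, the Npy value rests on Cre- control 3. In the same libraries all 12 microglia and macrophage markers were lower, median -1.12, with sums of 185.1 to 416.9 CPM in AGR cKO control and 327.2 to 944 CPM in Cre- control libraries. All 10 endothelial markers were lower too, median -0.97, with sums of 326.1 to 709.6 CPM in AGR cKO control and 338.9 to 1829 CPM in Cre- control libraries. Of 8 ependymal and choroid plexus markers 7 were lower, median -0.77, with sums of 52.8 to 87.8 CPM in AGR cKO control and 84.6 to 129 CPM in Cre- control libraries. Of 15 astrocyte markers 11 were lower, median -0.095. Mural and fibroblast markers were split, with 5 of 10 higher (median 0.015), as were oligodendrocyte markers, with 4 of 8 higher (median 0.007). The part of these other cells in the neuronal values was not tested.

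AGR cKO ESD against Cre- ESD addresses the same deletion in separated pups, and shares libraries with both separation comparisons. Here 29 of 35 members were lower, with a median log2 fold change of -0.52, against 0.002 over all genes tested. No overlap and lower held for 7 members, Sez6l2, Ptprn, Tubb3, Ina, Rbfox3, Reln and Sst, where 9.64% of genes had it. No overlap and higher held for Syn1 and Nptx2, where 10.3% did. EdgeR called 0 members, against 1.04% of all genes, and 14 members, 40%, were at an unadjusted p under 0.05, against 15.6% of genes. That count was 8 of 35 without AGR cKO ESD 3, where 16.1% of genes passed. It was 9 of 35 without Cre- ESD 1, where 11.2% of genes passed and the members' median was -0.34. DESeq2 called Sez6l2, Tubb3 and Ptprn of 783 genes, and limma on TPM 0 members.

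Sez6l2 came nearest to the threshold at -0.84 ± 0.18 (adjusted p = 0.051), followed by Tubb3 at -0.96 ± 0.22 (adjusted p = 0.0677) and Ptprn at -0.77 ± 0.23 (adjusted p = 0.151). Sez6l2 was called with median-of-ratios scaling (adjusted p = 0.0499), with only genes at 1 CPM in 3 libraries (0.0432) and without Cre- control 1 (0.0435). Nptx2 stood at 0.36 ± 0.12 (adjusted p = 0.182) and Syn1 at 0.38 ± 0.12 (adjusted p = 0.177), against the direction of the others. All 12 microglia and macrophage markers were also lower in AGR cKO ESD, median -1.07, with sums of 155.5 to 405.5 CPM in AGR cKO ESD and 448.9 to 755.1 CPM in Cre- ESD libraries. All 10 endothelial markers (median -1.02) and all 10 mural and fibroblast markers (median -0.55) were lower as well, with endothelial sums of 234.4 to 460.8 CPM in AGR cKO ESD and 396.2 to 1074 CPM in Cre- ESD libraries. The mural sums were 1601 to 3596 CPM in AGR cKO ESD and 2481 to 5015 CPM in Cre- ESD libraries. Of 8 ependymal and choroid plexus markers 6 were lower, median -0.66, with sums of 49.7 to 67.3 CPM in AGR cKO ESD and 66.2 to 78.8 CPM in Cre- ESD libraries. Their part in the neuronal values was not tested. Of 15 astrocyte markers 11 were lower in AGR cKO ESD, median -0.139.

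Other neuronal genes were taken from a list of 30, of which 29 were tested. The interneuron genes Slc32a1, Pvalb and Vip, the peptide gene Cck and the neurofilament gene Nefh had a count of 0 in at least 1 library. In AGR cKO ESD against AGR cKO control 22 of 29 were lower (median -0.23), and in AGR cKO control against Cre- control 25 of 29 were higher (median 0.33), with 0 called by edgeR in either. For Cre- ESD against Cre- control 16 of 29 were higher (median 0.09). Their interaction was below 0 in 24 of 29, with a median of -0.285, where the members' median was -0.865. By edgeR 4 of them, 13.8%, had an interaction at an unadjusted p under 0.05, against 40% of members and 4.49% of all genes. In AGR cKO ESD against Cre- ESD 17 of 29 were higher (median 0.105), where 29 of 35 members were lower. There 2 genes were called, both higher: Grin1, the obligatory NMDA receptor subunit, and Syn2, a synapsin. Grin1 stood at 10.4, 16.7 and 12.9 CPM in AGR cKO ESD, 16.1, 15.0 and 13.6 CPM in AGR cKO control, 7.79, 7.27 and 6.71 CPM in Cre- ESD, and 7.52, 7.38 and 6.91 CPM in Cre- control libraries, and all 6 AGR cKO libraries were above all 6 Cre- libraries. The log2 fold change was 0.88 ± 0.16 (adjusted p = 0.0326) for Grin1 and 0.47 ± 0.09 (adjusted p = 0.0431) for Syn2. Their direction is opposite to that of most members in this comparison. These calls come from the fit over all 4 groups, in which edgeR called 200 genes. Fitted on the AGR cKO ESD and Cre- ESD libraries alone, edgeR called 0 of 18420 genes, with 14.9% at an unadjusted p under 0.05.

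Transcript counts show which variants the reads were assigned to. Of Camk2a reads, 80.4% went to variant 2, 13.9% to variant X1, and 5.46% to variants 1 and 3 together. That last share was 1.47% to 4.32% in AGR cKO ESD, 6.5% to 13.2% in AGR cKO control, 2.04% to 3.95% in Cre- ESD and 1.42% to 11% in Cre- control libraries. In the AGR cKO groups the libraries did not overlap, but the share rests on 14 to 46 counts in AGR cKO ESD and 75 to 139 in AGR cKO control. Assignment also varied within a group, with variant X1 at 128, 273 and 12 counts in AGR cKO ESD. Of Gad1 reads 54.1% went to non-coding variants, from 0% in AGR cKO control 3 to 100% in Cre- ESD 1 and Cre- control 3. AGR cKO control 2 and 3 and AGR cKO ESD 2 held 2.82%, 0% and 6.13%, and the other 9 libraries 47.5% or more. Assignment between overlapping variants is an estimate at counts of 62 to 213 per library for Gad1, and these shares were not tested.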

How the data were processed

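The data are RNA sequencing libraries of 12 cortical astrocyte preparations in 4 groups of 3. The authors deposited whole-number read counts per gene and per transcript, with no normalization stated, and the deposited tables also hold TPM per gene, scaled by length and library. Per the submitters' processing notes, build mm10 was used with StringTie 1.3.4b, HISAT2 2.1.0, Bowtie2, HISAT, DESeq2 and Trimmomatic, whose roles and order are not given. Columns marked cre_M and cre_P were read as Cre minus and Cre plus. Whether counting used the strand is not given in the sources used here.

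Gene counts were tested with edgeR 4.0.16 (R 4.3.3): filterByExpr, TMM scaling and a quasi-likelihood model with 1 mean per group over the 12 libraries (8 residual degrees of freedom, common biological coefficient of variation 0.1945). The 5 contrasts were separation within each genotype, genotype within each rearing condition, and their interaction. Two-sided p-values were adjusted by Benjamini-Hochberg over all 19163 genes tested and called under 0.05. The standard error is the log2 fold change over the square root of F. CPM uses the TMM-scaled library sizes. The procedure was tested on simulated data. With 3 libraries against 3, an exact permutation test of 1 gene cannot go below p = 0.1.

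Alternatives were DESeq2 1.42.0, other scalings and filters, only the groups compared, a replicate block, each library left out, and limma 3.58.1 (limma-trend) on log2 TPM with 1 or 0.1 added. Adding 1 understates changes of low genes. With 0.1 added the members' median for AGR cKO ESD against AGR cKO control was -0.61, against -0.58 with edgeR. Members, role classes and marker lists were chosen with earlier results of these data known. The rule for genes described in full took the 3 members with the smallest p per contrast and the most abundant member per class, 14 in all; other named genes illustrate counts. Promoter windows are from RefSeq.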

Additional observations from a re-analysis of the deposited data

How the results depend on the processing

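The count of members called was 0 in every comparison with edgeR and stayed 0 under the alternatives except these: DESeq2 called 5 for AGR cKO ESD against AGR cKO control, 2 for AGR cKO control against Cre- control, 3 for AGR cKO ESD against Cre- ESD and 3 for the interaction, and for AGR cKO ESD against Cre- ESD median-of-ratios scaling and the 1 CPM filter (29 members tested) each called 1. With each library left out in turn, the counts ranged over 0 to 0, except AGR cKO ESD against Cre- ESD at 0 to 1. The median log2 fold change of the members then ranged over -0.81 to -0.49 (AGR cKO ESD against AGR cKO control), -0.01 to 0.27 (Cre- ESD against Cre- control), 0.25 to 0.39 (AGR cKO control against Cre- control), -0.64 to -0.34 (AGR cKO ESD against Cre- ESD) and -0.92 to -0.56 (interaction). With 1 added to TPM it was -0.39 for AGR cKO ESD against AGR cKO control, -0.33 for AGR cKO ESD against Cre- ESD and -0.46 for the interaction; adding 1 shrinks low values by construction. For the other moved values the cause was not tested.

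The summed level without Thy1, an alternative chosen after seeing the data, was 240.2 CPM in AGR cKO ESD, 298.3 CPM in AGR cKO control, 296.0 CPM in Cre- ESD and 258.3 CPM in Cre- control. The sums with 1 library left out ranged over 294.4 to 319.3, 351.9 to 366.9, 333 to 368.1 and 300.4 to 326 CPM in these groups. Of 642 values of named genes, 626 kept their side of the threshold, 16 became called and 0 reversed. They cover 31 pairs of gene and comparison, taken for an unadjusted p under 0.05 or for ranking among the smallest p. This choice mostly leaves out fold changes near 0, so 0 reversed does not show that their direction held. Without Cre- ESD 1, 16 of 35 members were higher and 19 lower in Cre- ESD against Cre- control. With all libraries 29 were higher and 6 lower. Same-numbered libraries of different groups correlated at -0.104 to 0.227 (7 of 18 pairs above 0.1), and different-numbered libraries at -0.223 to 0.167. These ranges overlap and do not settle whether the numbers pair the libraries. The replicate block called 0 members in each comparison, with medians of -0.59, 0.18, 0.32, -0.54 and -0.86. Members near 1 CPM or below rest on few counts, and differences there may not be detectable at this depth.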
